A study of Mus musculus with 2 samples.

Results

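Tcf1 binding was examined at the genes encoding the proteins of the cytosolic ribosome, in a ChIP-seq peak list from naïve CD8+ T cells of mouse spleen. Members were the protein-coding genes of the mm9 annotation (GENCODE vM1) named Rpl or Rps followed by a digit, together with Rplp0, Rplp1, Rplp2 and Rpsa, leaving out the Rps6k kinases and like-named genes ending in l, l1 or -ps. This rule took 78 of 22350 protein-coding genes on the numbered chromosomes and X. These were 32 small subunit genes, 42 large subunit genes and the 3 genes of the ribosomal stalk. The remaining member, Rps19bp1, encodes a protein that binds Rps19 and is no ribosome subunit, and it was kept because its name fits the rule. Rpl41 had no protein-coding entry of that symbol in the annotation. Fau, which encodes a ribosomal protein as a fusion to a ubiquitin-like protein, fell outside the rule and is given separately.

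The data came from 1 WT library and 1 Tcf1-deficient library, both immunoprecipitated with a rabbit antiserum against full-length Tcf1, with the Tcf1-deficient library as the control of 1 peak call. In the series description the mice of both groups carried hCD2-Cre and a Rosa26 GFP reporter that Cre switches on, with Tcf1 and Lef1 either wild-type or both floxed, and the cells were sorted as GFP+ TCRβ+ CD62Lhi CD44lo-med CD8+. The title calls the control cells Tcf1-deficient, the genotype field gives Tcf1-/-Lef1-/-, and the study's methods describe a control lacking Tcf7, the gene of Tcf1, alone through Cd4-Cre. Whether the control cells also lacked Lef1 was therefore not settled here. After removal of duplicates the WT library held 36938606 fragments and the Tcf1-deficient library 27625250, and with 1 library per group no replicate check and no test between genotypes was possible. The list held 22286 peaks, of which 19042 passed the study's high-confidence limits (p under 1e-05, q under 0.05 and 4-fold enrichment or more). A peak list holds no expression, so neither the sorted cell type nor the loss of Tcf1 in the control could be checked from it.

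The ribosome joins amino acids into protein. Its small subunit, built with the Rps proteins, reads the mRNA, and its large subunit, built with the Rpl proteins, forms the peptide bonds. The ribosomal protein genes are scattered over the genome and are transcribed at high levels in growing cells. Naïve T cells are small resting cells that make little protein, and they raise ribosome production when antigen activates them. Tcf1 is a high-mobility-group protein that recognises the Tcf/Lef motif and takes part in T cell development and in the identity of mature CD8+ T cells.

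Nearly the whole set carried a Tcf1 peak at a promoter. A gene was called bound when the summit of a deposited peak lay within 1 kb of the start of any of its transcripts, and 73 of the 78 members were bound (93.6%, Wilson 95% interval 85.9 to 97.2%). Over all protein-coding genes the share was 36.6% (8190 of 22350, interval 36.0 to 37.3%). With high-confidence peaks alone, 67 of the members were bound (85.9%), beside 32.8% of all protein-coding genes. These intervals cover counting error only, and the genes compared were not matched by expression. Members had more annotated starts than other genes, with a median of 4 against 2, which gives a summit more chances to lie near a start. Among genes with a single annotated start, 19 of 20 members (interval 76.4 to 99.1%) and 22.3% of 9829 protein-coding genes were bound.

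The ribosome of the mitochondrion, the proteasome and the translation factors gave shares between these values. Of 76 mitochondrial ribosomal protein genes (Mrpl and Mrps), 59 were bound (77.6%, Wilson 95% interval 67.1 to 85.5%). Of 41 genes for proteasome subunits, which build the particle that degrades ubiquitin-tagged proteins, 33 were bound (80.5%, interval 66.0 to 89.8%). Of 66 entries for initiation and elongation factors, taken by the Eif and Eef prefixes and so including some of their kinases and binding proteins, 53 were bound (80.3%, interval 69.2 to 88.1%). The interval of the cytosolic members overlapped those of the proteasome and translation factor lists, and lay just above that of the mitochondrial list. None of the 55 processed copies of ribosomal protein genes (symbols with -ps) that the annotation lists as protein-coding was bound, and 0 of 55 allows a share of up to 5.45%. Such copies share sequence with their parent genes, and how reads that align to several places were handled in this ChIP-seq was not given in the sources used here, so peaks missing from copies, and from exons that resemble them, cannot be read as absence of binding.

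**Figure D1:**
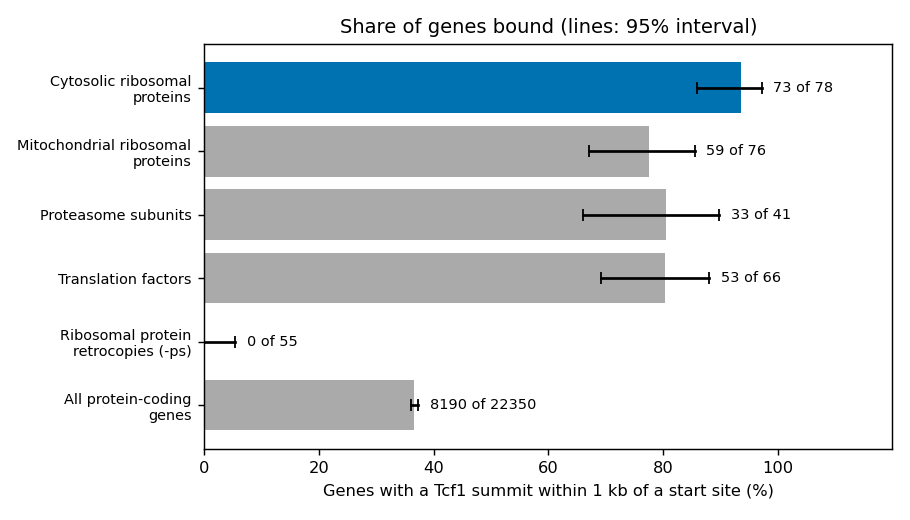
Share of genes in each list with a Tcf1 summit within 1 kb of an annotated start (horizontal axis, percent), with the count beside each bar. Lines are Wilson 95% intervals, or for 0 of 55 the share that a count of 0 allows, and the cytosolic ribosomal protein genes stand at 93.6% beside 36.6% of all protein-coding genes.

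Binding was spread over both subunits. Of the small subunit genes, 30 of 32 were bound (93.8%, Wilson 95% interval 79.9 to 98.3%), with a median pileup of 52.5 fragments. Of the large subunit genes without the stalk, 39 of 42 were bound (92.9%, interval 81.0 to 97.5%), with a median pileup of 44 fragments. The pileup counts WT fragments at the summit position, and its interquartile ranges of 37 to 64.2 and 31 to 59.5 fragments overlapped. The subunits were thus not told apart by these values.

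The 2 strongest peaks stood at genes of the large subunit. Rpl13a, whose protein also serves in a translation-silencing complex outside the ribosome, had a pileup of 219 fragments (exact Poisson 95% interval 191 to 250) and a fold enrichment over the control of 34.3. Rpl18 had 157 fragments (133 to 184) and a fold enrichment of 24.6. The intervals of these genes did not overlap, and among the 72 pairs of neighbours in the order of pileup this was the only pair of which that held: the other 71 did not differ beyond counting error. Rpl27 had 112 fragments (92.2 to 135) and a fold enrichment of 16.1. Rpl12 had 108 fragments (88.6 to 130) at a fold enrichment of 17.0, and Rps7 had 100 fragments (81.4 to 122) at 12.1.

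At the other end, Rpl23a and Rps28 had 20 fragments each (12.2 to 30.9) at a fold enrichment of 3.27, and Rpl10 and Rpl37a had 22 each (13.8 to 33.3) at 3.58. With Rpl36 (23 fragments, fold enrichment 3.74) and Rpl8 (26 fragments, 3.85), these were the 6 bound members under the fold minimum of 4. The lowest pileup called anywhere in the list at the lowest control level was 18 fragments, so the weakest members sat close to the limit of detection.

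**Figure D2:**
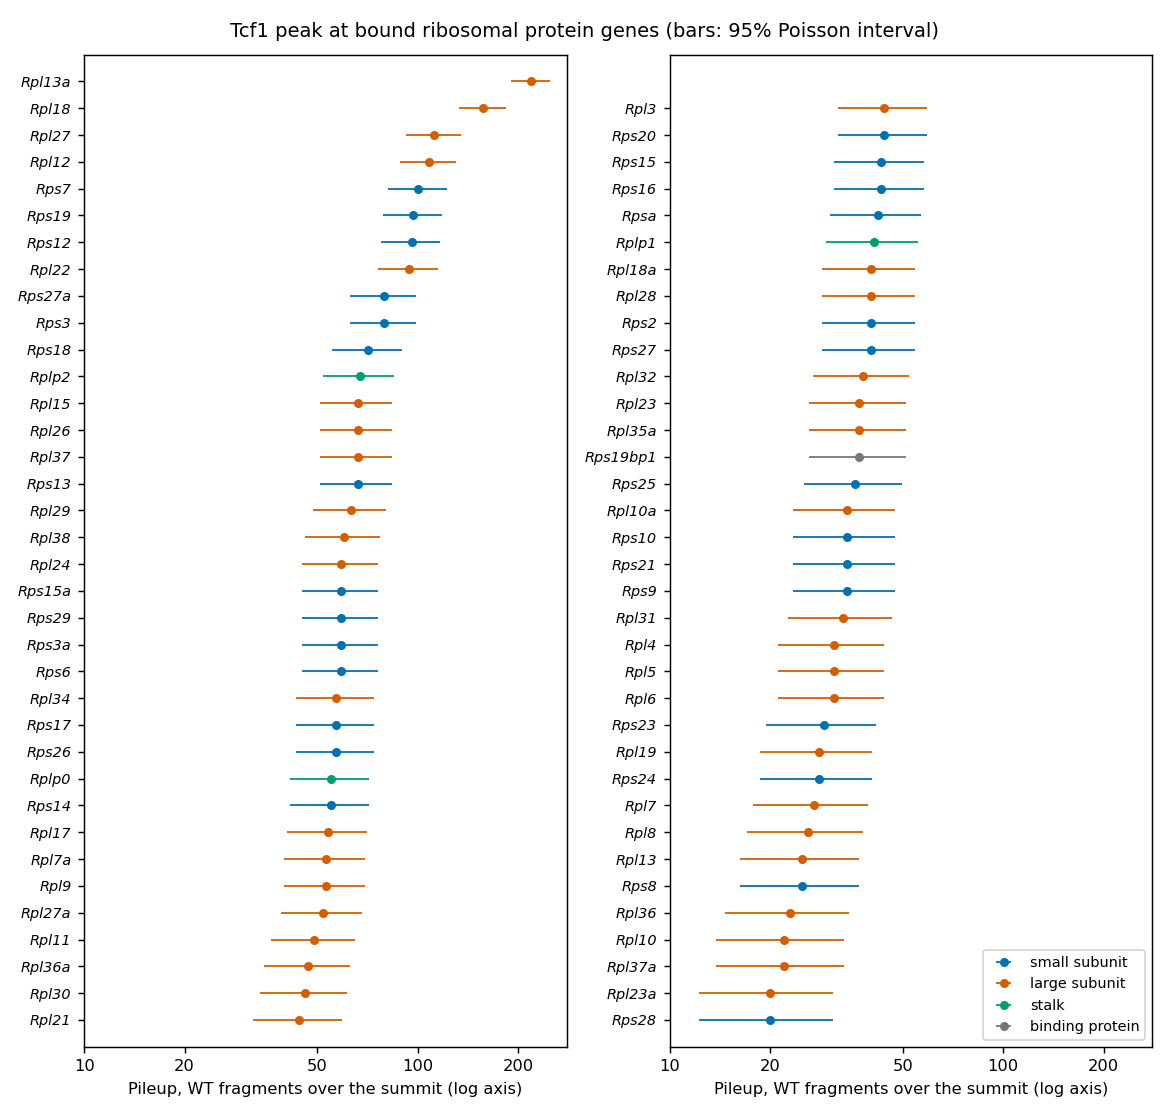
Pileup at the summit chosen for 71 of the 73 bound members, in order, on a log axis of WT fragments, with exact Poisson 95% intervals as bars and colours for the subunits. Rpl13a at 219 fragments is the sole member whose interval clears that of the next gene, and small and large subunit genes are mixed along the order.

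Many members peaked slightly above the usual bound gene, and few stood far above it. The median pileup was 46 fragments in the members (interquartile range 34 to 60, range 20 to 219) and 41 over all 8190 bound protein-coding genes (31 to 59). Of the 73 bound members, 43 were above that median, 29 below it and 1 at it. The upper quartile of all bound genes, 59 fragments, was passed by 19 members (26.0%), against 24.7% of all bound genes, and 12 members lay under the lower quartile of 31. The median fold enrichment was 6.70 (5.45 to 9.14) in the members and 6.39 over all bound genes, with 14 members at 10 or more, 42 from 5 to under 10 and 17 under 5. Peak width was 564 bp in the median for the members and 535 bp for all bound genes. The high share of bound members thus went with peaks of about ordinary height and width. The median pileups were 44 fragments for the mitochondrial ribosomal, 40 for the proteasome and 38 for the translation factor genes that were bound.

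**Figure D3:**
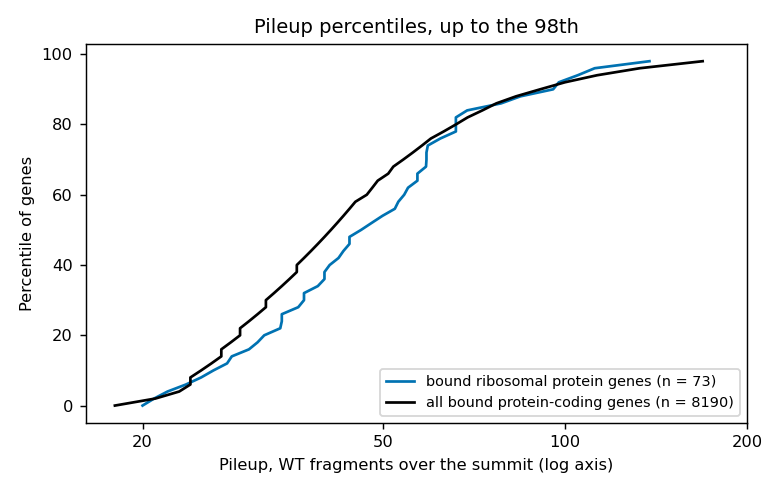
Percentiles of the pileup, from the lowest to the 98th, for the 73 bound members (blue) and all 8190 bound protein-coding genes (black), on a log axis of WT fragments. The members lie above all bound genes in the middle, with medians of 46 and 41 fragments, and below them at the top, with 138 and 169 fragments at the 98th percentile.

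Several members belong to groups known from disease or signalling. Of 18 genes in which mutations are known to cause Diamond-Blackfan anaemia, a failure of red cell production, 17 were bound (94.4%, Wilson 95% interval 74.2 to 99.0%). The exception was Rpl35. The share was 93.6% over all members and 36.6% over all protein-coding genes, so this group did not stand apart from the set. Its median pileup was 57 fragments, with a range of 20 to 157. Rps19, the gene first linked to this disease, had 97 fragments (78.7 to 118) with a summit 68 bp inside the gene. Rps14, whose loss marks a myelodysplastic syndrome, had 55 fragments (41.4 to 71.6) and a fold enrichment of 8.73. The proteins of Rpl5, Rpl11 and Rpl23 bind Mdm2 when ribosome assembly is disturbed, which stabilises p53. All 3 genes were bound, with 31 (21.1 to 44.0), 49 (36.3 to 64.8) and 37 (26.1 to 51.0) fragments respectively.

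Rpl22, which is required for the development of αβ T cells, had 94 fragments (76.0 to 115) and a fold enrichment of 14.8. Rps6, the protein phosphorylated by S6 kinase downstream of mTOR, had 59 fragments (44.9 to 76.1) and a fold enrichment of 7.81. The stalk, where elongation factors dock, was bound at each of its genes, with 55 fragments at Rplp0 (41.4 to 71.6), 41 at Rplp1 (29.4 to 55.6) and 67 at Rplp2 (51.9 to 85.1). Rpsa, which also acts as a laminin receptor, had 42 fragments (30.3 to 56.8). Rps27a, made as a fusion to ubiquitin, had 79 (62.5 to 98.5). Outside the rule, Fau had 36 fragments (25.2 to 49.8) at a fold enrichment of 5.76. Rps19bp1 had 37 fragments (26.1 to 51.0).

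The 5 members without a summit within 1 kb were Rpl14, Rpl35, Rpl39, Rps4x and Rps4y2. The nearest summit to an Rpl35 start lay 2453 bp upstream and had 34 fragments. For Rpl14 it lay 5725 bp downstream, past the end of the gene, and had 176 fragments at a fold enrichment of 27.6. For Rpl39 it lay 25.1 kb upstream, and for Rps4x 26.4 kb downstream, both with 26 fragments. Rps4y2, a copy of Rps4 on chromosome 6 with 1 annotated start, had none nearer than 143 kb. No bound member lay close to the limit of 1 kb from its nearest annotated start, since the farthest summit, at Rpl4, was 525 bp away. Rps2 and Rps10 were bound only through internal starts, with summits 1928 and 1368 bp downstream of their reference starts (the start used by most protein-coding transcripts). The set has 4 genes on X, and 2 of these, Rpl10 and Rpl36a, were bound, with 22 and 47 fragments, whereas Rpl39 and Rps4x were not. On the autosomes 71 of 74 members were bound (95.9%, Wilson 95% interval 88.7 to 98.6%), beside 17.5% of all protein-coding genes on X and 37.5% on the autosomes. The study's methods state that mice of both sexes were used, and which went into these libraries was not given in the sources used here.

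The promoter sequences just before the annotated starts of Rpl14, Rpl39, Rps4x and Rps4y2 are shown because these genes stand apart from the set in having no peak. They run up to the base before the start, on the strand of the gene, with matches to the promoter cores described below in capitals. The Rpl14 stretch holds GC boxes, a CCAAT box and an Nrf1 core, Rpl39 and Rps4x hold a GC box each, and the Rps4y2 stretch holds none of the cores. Rpl35 is not shown because annotated exons cover the window around its reference start.
Rpl14 (mm9, chr9:120480532-120480631, plus strand): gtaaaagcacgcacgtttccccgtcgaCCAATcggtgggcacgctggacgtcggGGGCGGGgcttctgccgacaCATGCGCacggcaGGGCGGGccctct
Rpl39 (mm9, chrX:34625398-34625497, minus strand): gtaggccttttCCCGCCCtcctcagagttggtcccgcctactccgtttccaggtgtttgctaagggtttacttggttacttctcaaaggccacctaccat
Rps4x (mm9, chrX:99384734-99384833, minus strand): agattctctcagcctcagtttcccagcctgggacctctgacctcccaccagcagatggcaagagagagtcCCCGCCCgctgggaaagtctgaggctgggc
Rps4y2 (mm9, chr6:148303078-148303177, plus strand): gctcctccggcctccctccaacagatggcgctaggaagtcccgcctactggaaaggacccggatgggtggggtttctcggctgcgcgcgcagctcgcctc

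The control level of the peak call, which stands for the Tcf1-deficient library, rose above its lowest value at a minority of members. The control level at a summit, computed back from the deposited pileup and fold enrichment, never fell under a genome-wide floor of 5.42 fragments at the WT depth. It was at this floor for 56 of the 73 bound members (76.7%) and for 82.7% of all bound genes, and above it for 17 members. The highest level was 14.7 fragments at Rps19, which lowered its fold enrichment to 6.24. Rps12, with nearly the same pileup of 96 fragments but a fold enrichment of 15.1, had a control at the floor. Rpl27a had 52 fragments in WT over 8.02 in the control. The order of members by fold enrichment therefore differed from that by pileup where the control was raised.

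Summits lay close to the start sites, mostly just upstream. The median signed distance from the summit to the nearest annotated start was -23 bp in the members (interquartile range -73 to 7 bp, negative being upstream) and -45 bp over all bound genes (-130 to 13 bp). Of the 73 summits, 50 were upstream and 22 downstream of that start, and 57 (78.1%) were within 100 bp of it, against 54.7% over all bound genes. Since members have more annotated starts, the distance was also taken to 1 reference start per gene, the start used by most protein-coding transcripts, and the medians were then -21 bp for 71 bound members and -43 bp for 7568 bound genes, with shares within 100 bp of 69.0% and 48.1%. With the start around which most transcripts begin, a choice made after seeing the data, the medians were -51.5 bp in the members and -52 bp in all bound genes, so the difference in the median was gone under that choice, and the shares within 100 bp were 68.1% and 48.4%. By the gene models of the annotation, 42 summits fell before the first base of the gene, 30 in an exon and 1, at Rpl24, in an intron. All 73 chosen peaks covered a start site of their gene. Ribosomal protein mRNAs begin with a pyrimidine run that starts with C, and 3 of 78 reference starts in this annotation began with C and 4 further pyrimidines, against 446 of the 22350 protein-coding genes. Counting every annotated start, 25 of the 78 members had such a start, as did 1378 of the 22350 protein-coding genes. Counted by start, it was 32 of the 335 starts of members and 1483 of the 70018 starts of all protein-coding genes. Distances of this size therefore depend on which annotated start is used.

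**Figure D4:**
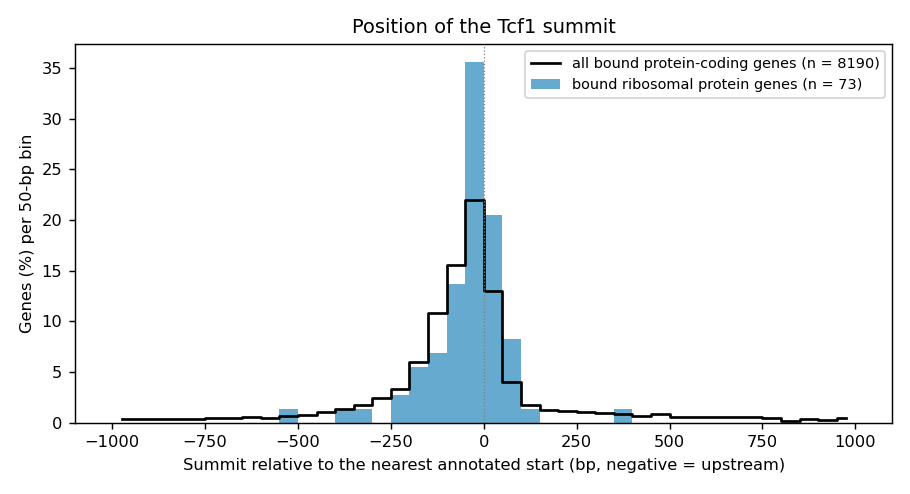
Distance from the Tcf1 summit to the nearest annotated start in bins of 50 bp (horizontal axis, bp, negative is upstream) as the percent of genes, for the 73 bound members (bars) and all 8190 bound protein-coding genes (line). The bin from 50 bp upstream to the start holds 35.6% of the members and 22.0% of all bound genes.

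Few summits lay far from a start. At Rpl4 the summit was 525 bp upstream of the Rpl4 start and 14 bp from the start of Zwilch, a kinetochore gene. Rpl12 (364 bp upstream of an internal start) and Rps26 (326 bp upstream) followed on that side. Downstream, the largest were Rpl8 (370 bp), Rps18 (141 bp) and Rps19 (68 bp). Rps26 and Rpl8 each had 1 annotated start and no start of another protein-coding gene within 1 kb of the summit. In all, 12 chosen summits had a start of another protein-coding gene within 1 kb, and at 5 of them that start was the nearer. These were Rpl4, Rpl7a (Med22, 42 bp from the summit), Rps27 (Rab13, 46 bp), Rps18 (Vps52, 22 bp) and Rpl13a (Flt3l, 51 bp). Flt3l encodes the ligand of the cytokine receptor Flt3, so the highest pileup of the set stood on a region shared by both genes, and a peak cannot tell them apart. Rpl18 also shared its region, with Sphk2, a sphingosine kinase, 205 bp from the summit. The 14 members that had a start of another protein-coding gene within 1 kb of one of theirs were all bound, with a median pileup of 53 fragments, beside 69.8% of the 3059 protein-coding genes of this kind. Without them, 59 of 64 members were bound (92.2%, Wilson 95% interval 83.0 to 96.6%), with a median of 44 fragments, beside 31.4% of 19291 protein-coding genes.

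For 7 bound members (9.59%) more than 1 summit lay within 1 kb of an annotated start, against 11.7% of all bound genes, and the peak that ranked them was not always that of their main start. At Rpl13a the peak of 219 fragments (chr7:52391205-52391985) lay near the 5′-most starts, those of 2 of its 13 transcripts. A peak of 44 fragments (32.0 to 59.1) stood 7.44 kb from the 5′ end of the gene, within 1 kb of the starts of 8 transcripts. At Rpl12 the peak of 108 fragments (chr2:32818266-32818912) lay 1466 bp into the gene. The peak at its first starts had 30 fragments (20.2 to 42.8) at a fold enrichment of 3.20, over a control level of 8.69. Rpl24 likewise had 59 fragments 7.37 kb into its annotated span and 32 (21.9 to 45.2) at its 5′-most start. With the peak nearest to a start in place of the highest, the median pileup over the members was 44 fragments.

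In others the higher summit was at the first starts. Rpl18 had 26 fragments at an internal start 2.63 kb into the gene, beside the 157 at its first start. Rpl37 had 66 fragments 241 bp upstream and 53 fragments 754 bp downstream of its single start. Rps18 had a further peak of 35 fragments near a start at the 3′ end of the gene.

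The Tcf/Lef core was rare at these peaks. The core ATCAAAG, searched on both strands within 100 bp of the summit, was present at 2 of the 73 bound members (2.74%, Wilson 95% interval 0.755 to 9.45%), Rpl12 and Rps18, against 4.48% of all bound genes (4.05 to 4.95%). The same letters read backwards, GAAACTA, which serve as a comparison of equal base composition, were found at 1.37% of members and 1.86% of all bound genes. Over all protein-coding genes the core lay within 100 bp of 1.73% of reference starts. With any 1 of the 7 letters free, the shares were 30.1% of members and 34.6% of all bound genes. Both matches are shown because they are the only ones in the set, with the core, or its reverse complement, in capitals on the strand of the gene.
Rpl12 (mm9, chr2:32818527-32818555, plus strand): cagccctgatcATCAAAGccctcaaggag
Rps18 (mm9, chr17:34092865-34092893, minus strand): ctccggttaggCTTTGATcatttcggtca

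The Rpl12 core was 4 bp from the summit of the internal peak, in an annotated exon and 368 bp upstream of an internal start. The Rps18 core was 74 bp from a summit that is nearer to the Vps52 start than to an Rps18 start.

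The ETS core was the core whose share differed most, in percentage points, from that of all bound genes. CGGAAGT, recognised by ETS family factors, lay within 100 bp of the summit at 20 of 73 bound members (27.4%, Wilson 95% interval 18.5 to 38.6%) and at 14.9% of all bound genes (14.2 to 15.7%). Read backwards, its letters were found at 2.74% and 2.99%. Around reference starts the ETS core was present at 24 of 78 members (30.8%) and at 6.77% of all protein-coding genes. The 20 members held 25 matches, of which 17 were within 50 bp of the summit and 17 were upstream of the nearest start, with 15 on the strand of the gene and 10 on the other. Members with the core had a median pileup of 49.5 fragments (range 22 to 100) and those without it 44 (range 20 to 219). These ranges overlapped throughout.

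The promoters of Rps12, Rpsa, Rps26 and Rpl27a are shown because their ETS cores lie in a full window of 201 bases, the summit and 100 bp on each side, free of annotated exons. Capitals mark ETS cores on either strand, in Rps12 also 1 Nrf1 core, and in Rpl27a also GC boxes.
Rps12 (mm9, chr10:23507023-23507223, minus strand): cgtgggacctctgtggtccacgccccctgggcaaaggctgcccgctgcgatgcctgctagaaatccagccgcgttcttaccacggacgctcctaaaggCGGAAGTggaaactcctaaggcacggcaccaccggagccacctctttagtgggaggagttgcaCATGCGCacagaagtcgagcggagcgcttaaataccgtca
Rpsa (mm9, chr9:120036658-120036858, plus strand): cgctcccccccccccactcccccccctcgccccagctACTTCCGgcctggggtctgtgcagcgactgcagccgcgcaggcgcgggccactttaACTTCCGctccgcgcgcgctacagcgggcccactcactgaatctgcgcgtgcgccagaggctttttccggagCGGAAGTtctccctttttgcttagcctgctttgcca
Rps26 (mm9, chr10:128063788-128063988, minus strand): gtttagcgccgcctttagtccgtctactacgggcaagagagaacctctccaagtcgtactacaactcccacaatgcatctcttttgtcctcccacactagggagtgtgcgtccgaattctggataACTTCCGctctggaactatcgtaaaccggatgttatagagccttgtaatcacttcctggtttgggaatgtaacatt
Rpl27a (mm9, chr7:116662391-116662591, plus strand): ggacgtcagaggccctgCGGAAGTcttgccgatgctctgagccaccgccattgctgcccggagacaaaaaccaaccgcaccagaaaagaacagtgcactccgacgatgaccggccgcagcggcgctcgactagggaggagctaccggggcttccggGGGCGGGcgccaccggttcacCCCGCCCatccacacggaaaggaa

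In Rps12, with 96 fragments, the core was centred 1 bp from the summit. Rpsa, with 42 fragments, held 3 cores, at 4, 60 and 68 bp from its summit. In Rps26, with 57 fragments, it was 28 bp away, and in Rpl27a, with 52 fragments, 80 bp away. Rps7 (100 fragments) and Rps14 (55 fragments) had a core within 6 and 4 bp of the summit.

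Other promoter cores were found at shares with wide intervals. The GC box CCCGCCC was at 26 bound members (35.6%, Wilson 95% interval 25.6 to 47.1%) and 39.0% of all bound genes. The CCAAT box was at 14 members (19.2%, 11.8 to 29.7%) and 27.0%. The Nrf1 core GCGCATG and the YY1 core AAGATGG were each at 7 members (9.59%, 4.72 to 18.5%), against 5.32% and 5.90%. The TATA box TATAAA was at 6 members (8.22%, 3.82 to 16.8%) and 2.72% of all bound genes. The Runx core TGTGGTT was at 2 members (2.74%) and 4.44%. Among these, only the TATA box had an interval that did not reach the share of all bound genes. Around reference starts, where binding played no part in placing the window, the TATA box was at 11.5% of the members (6.19 to 20.5%) and 8.23% of all protein-coding genes. There the YY1 core was at 14.1% of the members (8.06 to 23.5%) and 5.45% of all genes, and the Nrf1 core at 10.3% (5.29 to 19.0%) and 3.61%. The sequence within 100 bp of the summit was 60.2% G and C in the median for the members and 63.2% for all bound genes, with 55 members under the latter value.

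**Figure D5:**
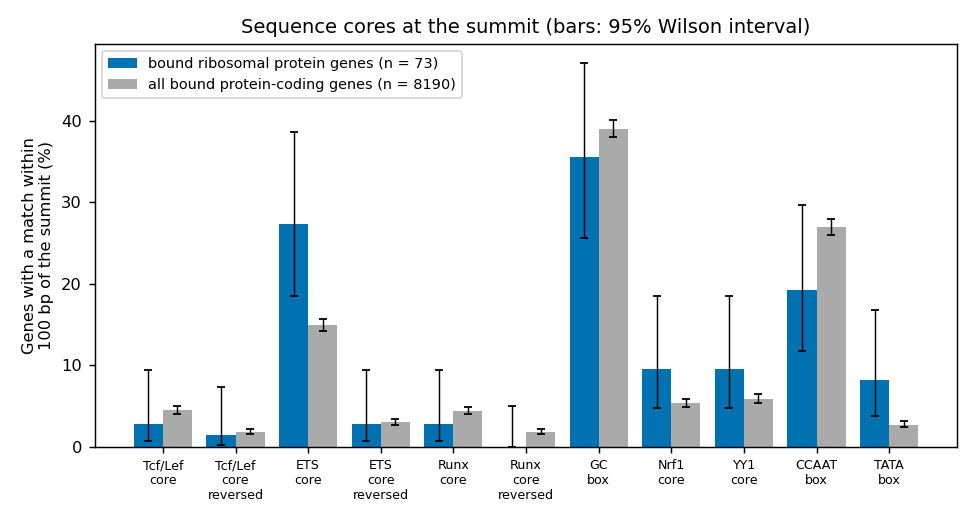
Percent of genes with each sequence core within 100 bp of the Tcf1 summit, for the 73 bound members (blue) and all 8190 bound protein-coding genes (grey), with Wilson 95% intervals. The ETS core stands at 27.4% of members and 14.9% of all bound genes, and the Tcf/Lef core at 2.74% and 4.48%.

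Rpl38, Rps15 and Rps24 had a summit in the gene body more than 1 kb from their starts, with 37, 21 and 22 fragments. They were 3.85% of the members, against 15.5% of all protein-coding genes, but the members are short genes, with a median length of 3.24 kb against 15.4 kb. With the 50 kb upstream included, 54 members (69.2%) had 127 further summits, counted once for each member they were linked to, and the share of all protein-coding genes with such a summit was 49.1%. Of the 127, 69 lay within 1 kb of the start of another gene, and for only 13 was a start of the member itself the nearest. The 58 links outside promoters came from 56 distinct summits, of which 6 (10.7%, Wilson 95% interval 5.0 to 21.5%) held the Tcf/Lef core, beside 12.8% of all 14011 peaks more than 1 kb from a protein-coding start. The highest were 281 fragments 44.9 kb upstream of Rpsa, nearest to Ccr8, and 251 fragments 29.0 kb upstream of Rps6, nearest to Acer2. Of the 13 summits nearest to the member's own start, the highest were 60 fragments 3.90 kb upstream of Rps15a and 50 fragments 18.9 kb upstream of Rpl34, and 4 lay upstream of Rpl11, with 31 to 48 fragments.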

How the data were processed

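Tcf1 ChIP-seq was done by the authors on naïve CD8+ T cells in 1 WT and 1 Tcf1-deficient library, sequenced on a HiSeq2000. Per the labels, quality was checked with FastQC, reads were aligned to mm9 with Bowtie2 2.2.5, and peaks were called with MACS2 2.1.1. The deposited signal column (pileup) is the unscaled WT fragment coverage at the summit. The deposited fold enrichment is a ratio with a pseudocount of 1, and the deposited −log10 q comes from MACS2. Per the file headers every peak was called at p under 1e-05, so the column of −log10 p was not used. Per the file headers, 79.6% of 46428124 WT and 76.5% of 36118114 Tcf1-deficient fragments were kept.

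From these values the control level was computed as (pileup + 1)/fold enrichment − 1, and a level within 0.01 of the lowest was taken as the floor. Start sites and sequence came from GENCODE vM1 and NCBIM37, which is mm9, and 0 peaks ran past a chromosome end. For each gene the summit with the highest pileup within 1000 bp of a start was used. Cores were searched within 100 bp of the summit on both strands. No test was run, because each group had 1 library. Intervals are Wilson (shares) or exact Poisson (pileups) at 95% and cover counting error only. Python 3.11.15, pandas 2.3.3, scipy 1.17.1 and pysam 0.24.0 were used, and the gene assignment and core search were tested on simulated data.

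The members, the gene lists and the cores were chosen with earlier results of these data known. Genes were named by rule: the 6 highest and 4 lowest pileups, the 5 highest fold enrichments, the 3 highest control levels, the 3 largest distances on each side, all unbound members, all with the Tcf/Lef core or several summits, and members with well-known roles. Further genes were named after their values were seen. These were members under the fold minimum, members bound only through internal starts and members beside another gene's start. They also included examples of the ETS core and of the control level, and genes with distal peaks. Alternatives covered the peak set, the distance, the start sites, the members, the choice of peak and the core search. Some members and results that this rule covers are not reported here, and these are left out of the plot of pileups by gene.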

Additional observations from a re-analysis of the deposited data

How the results depend on the processing

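Of 93 values recomputed under alternative settings for 10 results, 76 stayed within counting error of the reported value (for counts, within 1.5 times) and 17 moved. For binding and peak size, a fold enrichment of at least 8 moved the members most, because it keeps the higher peaks alone. It left 28 bound (35.9%), with a median pileup of 66 fragments, a median fold enrichment of 10.2 and a median width of 691 bp. Under the same limit 11.7% of all protein-coding genes were bound. The share of all protein-coding genes was 32.8% with high-confidence peaks, 34.2% at 500 bp, 39.0% at 2.5 kb, 33.9% with the reference start only and 32.4% where the peak interval had to cover a start. With the densest cluster of starts, chosen after seeing the data, it was 34.1%, and the members' median distance became -51.5 bp, beside -52 bp in all bound genes. Without genes beside another gene's start, also chosen after seeing the data, it was 31.4%. The share of bound members with the Tcf/Lef core was 30.1% with 1 free base, and with the ETS core 41.1% at 200 bp each side and 71.2% with 1 free base, where 58.4% of all bound genes also had it. For the distance, the cause was not tested. The floor could not be recomputed without the pseudocount, since no level is then shared between peaks. No paired analysis was possible because the result comes from no test and each group has 1 library. At this depth a peak needed at least 18 fragments at the control floor, so a gene without a peak is not shown to be unbound.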
